A study of Mus musculus with 12 samples.

Results

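The interferon regulatory factors are a family of transcription factors, and 8 of them, Irf1, Irf2, Irf3, Irf4, Irf5, Irf7, Irf8 and Irf9, were followed here across all 12 arrays of a mouse microglia experiment. A gene's probe sets were those annotated with that gene's symbol and no other, and the probe set with the highest mean stood for the gene, which gave 8 members among 19938 genes tested. Microglia, the resident macrophages of the brain, were purified on CD11b beads from C57BL/6J pups at postnatal day 7 and cultured for 3 days. They were then exposed for 6 h to oligomeric amyloid-β peptide Aβ42 at 10 µM together with AE1-329 at 100 nM, or to 1 of 3 other treatments. These were Aβ42 alone with 0.001% ethanol, AE1-329 alone with 0.4% DMSO, and the vehicle of 0.4% DMSO and 0.001% ethanol. No other solvent amount was recorded for these groups. AE1-329 is an agonist of EP4, a receptor for prostaglandin E2, and amyloid-β oligomers are used as a model of the peptide that accumulates in Alzheimer's disease. Each of the 4 groups had 3 arrays, replicates 1 to 3, which the study describes as microglia of 3 separate litters, so a replicate stands for a litter and not for a single animal. The cells were neonatal, had been taken out of the brain, and carried no genetic change that the labels name.

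Interferon regulatory factors bind DNA through a shared domain that reads the interferon-stimulated response element (ISRE), a motif built from GAAA repeats. IRF3 and IRF7 are activated by TBK1 and IKKε kinases downstream of pattern receptors and switch on interferon genes, and secreted interferon then acts through JAK kinases to assemble ISGF3, a complex that holds STAT2 and IRF9. IRF1 is itself induced by interferon and NF-κB signalling, IRF2 was first described as its antagonist at shared sites, IRF5 is linked to inflammatory cytokine genes, and IRF4 and IRF8 act with partners such as PU.1 in immune cells. IRF8 is required for normal microglia in mice, and much of the regulation of IRF3 and IRF5 runs through phosphorylation, which an array of RNA does not read.

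Promoter windows of these genes, 250 bases before to 50 after an annotated start, were read from RefSeq on GRCm38.p6, and 11 windows covered the 8 members. Both strands were searched for the ISRE, spelt as 2 GAAA repeats with any 2 bases between them, for the STAT-type GAS element TTCNNNGAA, for the NF-κB element κB, and for the cAMP response element TGACGTCA with its shorter core TGACG. Irf1, Irf2 and Irf8 are described below as moving with Aβ42, and so are Irf4, Irf7 and Irf9, whose windows held no ISRE, GAS or κB match. The 3 windows below are shown because they held every ISRE, GAS and κB match found in the members. Capitals mark those matches, each window runs 5′ to 3′ on the plus strand, and positions count from the start site.
Irf1, chr11:53769764-53770063: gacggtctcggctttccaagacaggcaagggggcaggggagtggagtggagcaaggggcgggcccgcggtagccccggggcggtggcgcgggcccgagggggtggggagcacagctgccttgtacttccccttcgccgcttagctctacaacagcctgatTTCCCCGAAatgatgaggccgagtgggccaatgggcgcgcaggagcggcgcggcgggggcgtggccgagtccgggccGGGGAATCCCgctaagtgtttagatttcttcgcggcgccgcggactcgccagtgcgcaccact
Irf2, chr8:46739495-46739794: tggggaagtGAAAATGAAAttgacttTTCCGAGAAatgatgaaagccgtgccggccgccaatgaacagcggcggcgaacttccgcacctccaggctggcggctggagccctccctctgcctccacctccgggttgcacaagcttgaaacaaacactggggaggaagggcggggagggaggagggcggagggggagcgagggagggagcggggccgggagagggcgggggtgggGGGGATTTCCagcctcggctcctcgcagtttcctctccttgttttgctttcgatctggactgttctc
Irf8, chr8:120736108-120736407: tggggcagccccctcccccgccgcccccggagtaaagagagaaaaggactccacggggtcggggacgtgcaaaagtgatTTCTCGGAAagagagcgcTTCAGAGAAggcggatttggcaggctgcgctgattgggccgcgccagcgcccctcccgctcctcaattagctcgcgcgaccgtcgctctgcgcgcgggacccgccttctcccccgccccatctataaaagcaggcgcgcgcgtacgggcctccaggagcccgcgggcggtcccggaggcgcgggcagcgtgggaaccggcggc
In the Irf1 window the GAS letters began at -90 and the κB letters at -13, where they read as a match on both strands. The Irf2 window held an ISRE at -241, a GAS at -224 and a κB match at -17. In the Irf8 window there were 2 GAS matches, at -171 and -153. Among all 32851 mouse windows of this length, 3.44% held the ISRE letters, 8.3% the GAS letters, 4.51% the κB letters, 1.79% the full cAMP element and 20.8% its core. The members' 11 windows held them in 1, 3, 2, 0 and 1 windows, the last being the single Irf7 window. These are matches of letters and not measured binding sites.

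Values are log2 intensities as the authors normalized them, so a difference of 1 is a doubling, and levels are compared within a gene only. Array medians lay between 6.97 and 7.05. The vehicle arrays differed most among themselves, with a median SD over genes of 0.109 against 0.0628 to 0.0660 in the other 3 groups, and over the members 0.153 against 0.0495 to 0.0969. In vehicle replicate 1, 18 genes exceeded the rest of their group by 1 log2 unit or more, and in AE1-329 replicate 3, 16 genes did so and 13 fell short by as much, and the results that change most without either array are also given without it. Of 10 microglia markers 9 were measured, and 8 of them, Csf1r, Cx3cr1 and P2ry12 included, lay above the median of the 19938 genes, which was 7.35 to 7.45 over the arrays. Their summed linear level was 15818 to 16231 with Aβ42 and AE1-329, 16348 to 17454 with Aβ42 alone, 17098 to 17555 with AE1-329 alone and 18132 to 18913 with vehicle. Irf4 and Irf8 are also genes of B cells and dendritic cells, and of 8 measured markers of those cells and T cells 1 lay clearly above that median, Bst2, which is itself induced by interferon, and Cd3e lay close to it. The summed level of these 8 was 1555 to 1623 with Aβ42 and AE1-329, 1774 to 1937 with Aβ42 alone, 1359 to 1512 with AE1-329 alone and 1401 to 1573 with vehicle. Most of that sum was Bst2, whose log2 means in these groups were 10.11, 10.39, 9.88 and 10.00. For Aβ42 against vehicle all 8 differences were positive, with a median of 0.15. The part of either marker list in the results below was not tested, and in cultures of mixed cells a lower share of a cell type cannot be told apart from less RNA per cell.

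**Figure D1:**
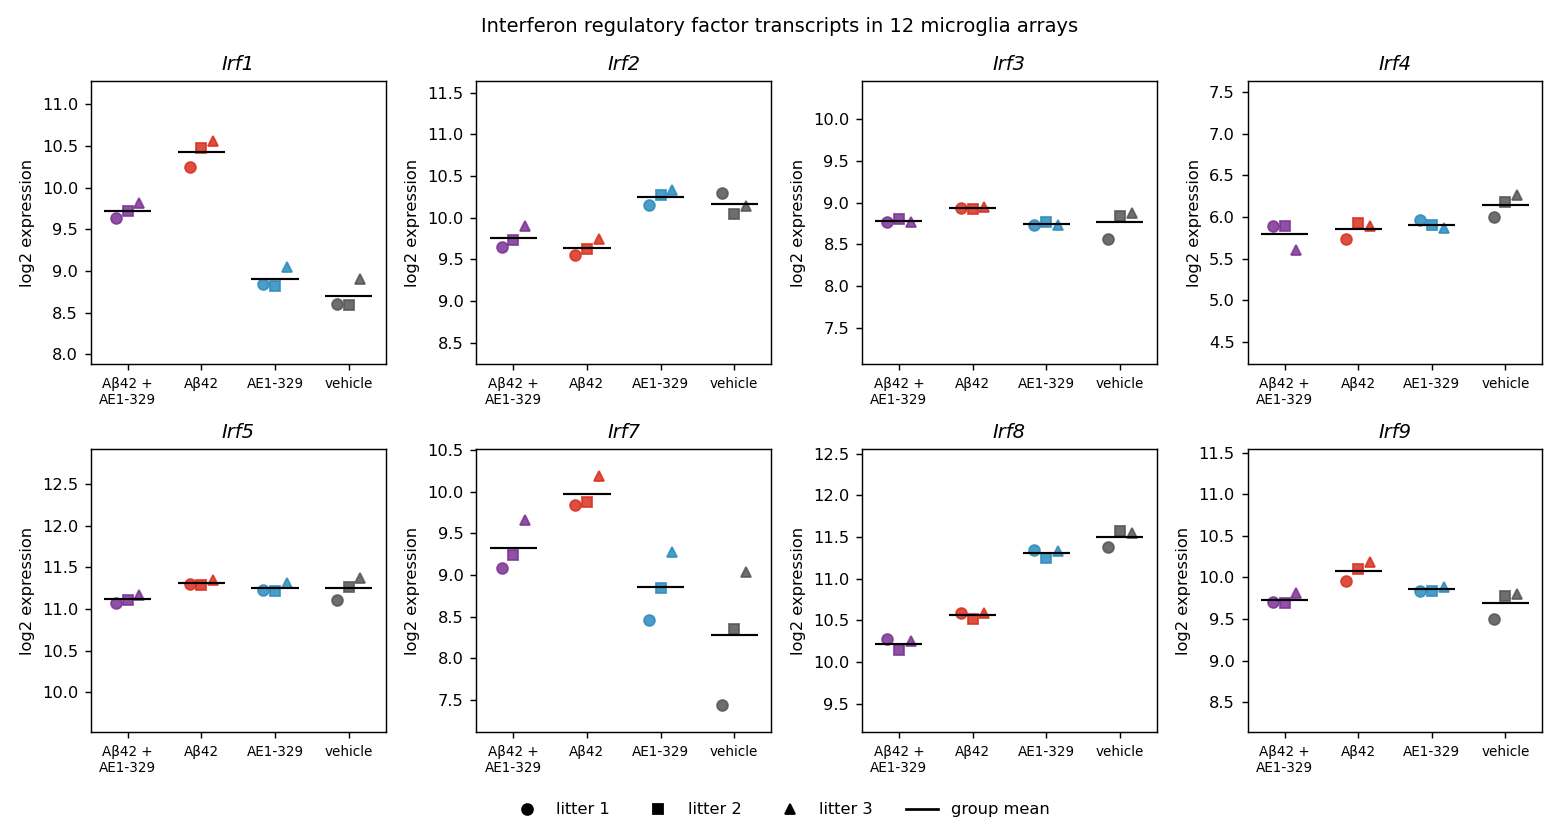
Log2 intensity of the 8 interferon regulatory factors on each of the 12 arrays. A point is the array of 1 litter, a line is the mean of its group (n = 3), and every panel spans the same number of log2 units; Irf1, Irf7 and Irf8 separate the groups most, and the Irf7 points spread furthest within a group.

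Irf1 was the member with the widest span of group means, 1.73 log2 units. Its values were 9.64, 9.72 and 9.81 with Aβ42 and AE1-329 (replicates 1 to 3), 10.25, 10.48 and 10.56 with Aβ42 alone, 8.85, 8.82 and 9.05 with AE1-329 alone and 8.60, 8.59 and 8.90 with vehicle. The 6 arrays with Aβ42 all lay above the 6 without it, and the Aβ42 arrays with AE1-329 all lay below those without AE1-329. Against vehicle, Irf1 rose with Aβ42 by 1.73 ± 0.10 log2 units, or 3.32-fold (SE, limma on all 12 arrays, p adjusted over all genes by Benjamini-Hochberg = 3.37e-08). In cells given both agents it was 1.63-fold lower than with Aβ42 alone (log2 change -0.71 ± 0.10, adjusted p = 0.000488) and still 2.03-fold above vehicle (adjusted p = 5.82e-06). AE1-329 alone differed from vehicle by 0.20 ± 0.10 (adjusted p = 0.285), and with the litter as a block adjusted p was 0.0498. A second Irf1 probe set averaged 7.23 with Aβ42 and AE1-329, 7.48 with Aβ42 alone, 7.26 with AE1-329 alone and 7.22 with vehicle. It too was higher with Aβ42 than with vehicle, by 0.25 ± 0.06 (adjusted p = 0.0109, over all probe sets), and lower with AE1-329 added (-0.24 ± 0.06, adjusted p = 0.0303). In the combination this second probe set did not differ detectably from vehicle (0.01 ± 0.06, adjusted p = 0.974) or from AE1-329 alone (-0.03 ± 0.06, adjusted p = 0.840). Because its changes were smaller or absent, the mean of both probe sets gave 0.99 for Aβ42 against vehicle and -0.48 for AE1-329 added to Aβ42. For the combination against vehicle that mean gave 0.51, and each of these 3 values was still past the threshold.

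Irf2 moved the other way with Aβ42 and showed no change past the threshold with AE1-329. Its values were 9.65, 9.73 and 9.90 with Aβ42 and AE1-329, 9.55, 9.63 and 9.74 with Aβ42 alone, 10.15, 10.27 and 10.33 with AE1-329 alone and 10.30, 10.05 and 10.15 with vehicle. All 6 arrays with Aβ42 lay below all 6 without it. Irf2 fell with Aβ42 alone (-0.52 ± 0.08, 1.44-fold lower than vehicle, adjusted p = 0.000371) and with Aβ42 in AE1-329 treated cells (-0.49 ± 0.08 against AE1-329 alone, adjusted p = 0.000777). Adding AE1-329 to Aβ42 gave 0.12 ± 0.08 (adjusted p = 0.497, 95% interval -0.06 to 0.30). Over the 12 arrays the Pearson correlation of Irf1 with Irf2 was -0.86, while their deviations from group means correlated at 0.48, so the opposition lay between groups and not among arrays of a group.

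Irf7, the interferon-induced amplifier of type I interferon, had a span close to that of Irf1 but a much larger spread. Its values were 9.09, 9.24 and 9.66 with Aβ42 and AE1-329, 9.84, 9.88 and 10.19 with Aβ42 alone, 8.46, 8.85 and 9.27 with AE1-329 alone and 7.44, 8.35 and 9.04 with vehicle. In all 4 groups replicate 1 was the lowest and replicate 3 the highest, and the group means were 9.33 ± 0.30 with both agents, 9.97 ± 0.19 with Aβ42 alone, 8.86 ± 0.41 with AE1-329 alone and 8.28 ± 0.81 with vehicle (SD, n = 3 each). Irf7 rose with Aβ42 by 1.69 ± 0.32 (3.24-fold, adjusted p = 0.00129), with litter differences of 2.41, 1.52 and 1.15. Without vehicle replicate 1 the increase was 1.27 and remained past the threshold. The 3 arrays with AE1-329 added to Aβ42 lay below all 3 with Aβ42 alone, with litter differences of -0.76, -0.64 and -0.53, but the mean change of -0.64 ± 0.32 did not pass (adjusted p = 0.287, 95% interval -1.33 to 0.05). With the litter as a block this change passed (adjusted p = 0.0276), as it did in a fit to these 2 groups alone (0.0253). With AE1-329 alone Irf7 was 0.58 ± 0.32 above vehicle (adjusted p = 0.347, or 0.0459 with the litter block), a value that depended on the arrays kept. It was 0.97 and passed without vehicle replicate 3 (adjusted p = 0.0430). It turned to -0.04 when both vehicle replicate 1 and AE1-329 replicate 3 were left out, a pair chosen after seeing the data.

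Irf9, the DNA-binding subunit of ISGF3, rose by less. Its values were 9.70, 9.69 and 9.81 with Aβ42 and AE1-329, 9.96, 10.10 and 10.19 with Aβ42 alone, 9.84, 9.84 and 9.89 with AE1-329 alone and 9.50, 9.78 and 9.81 with vehicle. The Aβ42 arrays without AE1-329 lay above those of the other 3 groups. Against vehicle the change with Aβ42 was 0.39 ± 0.08 (1.31-fold, adjusted p = 0.00334), whereas the combination differed from vehicle by 0.04 ± 0.08 (adjusted p = 0.854, 95% interval -0.14 to 0.22). Irf9 fell when AE1-329 was added to Aβ42 (-0.35 ± 0.08, 1.28-fold lower than Aβ42 alone, adjusted p = 0.0154). That call was lost without replicate 1 or 2 of the combination (adjusted p = 0.0614 for each) and without replicate 2 or 3 of Aβ42 alone (adjusted p = 0.0557 and 0.0783).

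Irf3, the factor that TBK1 activates without new synthesis, varied little. Its values were 8.77, 8.80 and 8.77 with Aβ42 and AE1-329, 8.94, 8.93 and 8.95 with Aβ42 alone, 8.73, 8.77 and 8.74 with AE1-329 alone and 8.57, 8.84 and 8.88 with vehicle. The Aβ42 arrays lay together above the rest, and vehicle replicate 1 was the lowest of all. In the fit to all 12 arrays no comparison of Irf3 passed, with 0.18 ± 0.07 for Aβ42 against vehicle (adjusted p = 0.0897, 95% interval 0.02 to 0.33) and -0.16 ± 0.07 for AE1-329 added to Aβ42 (adjusted p = 0.205). The first was 0.08 without vehicle replicate 1, and passed without vehicle replicate 3 (0.24, adjusted p = 0.0302) and after quantile normalization again (0.0409). The second passed without vehicle replicate 1 (adjusted p = 0.0127), without that array and AE1-329 replicate 3 (0.0191) and in a fit to these 2 groups alone (0.0337).

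Irf8, a lineage factor of microglia and other myeloid cells, had the largest decrease of the family. Its values were 10.27, 10.14 and 10.25 with Aβ42 and AE1-329, 10.59, 10.52 and 10.59 with Aβ42 alone, 11.34, 11.25 and 11.34 with AE1-329 alone and 11.38, 11.57 and 11.55 with vehicle. The 4 groups did not overlap, and they ascended from the combination over Aβ42 alone and AE1-329 alone to vehicle. The summed microglia markers given above ascended likewise, but their ranges with Aβ42 alone and with AE1-329 alone overlapped. The single markers did not all do so, and for the combination against vehicle 4 of the 9 differences were positive. Group means with the combination and with vehicle were 10.59 and 11.84 for Cx3cr1 and 7.53 and 9.18 for P2ry12. They were 12.695 and 12.579 for Csf1r, 11.339 and 11.295 for Itgam and 8.48 and 8.33 for Tmem119. Of the 9 measured markers, 2 were called higher and 3 lower with Aβ42 against vehicle, where 25.6% of all genes were called. Irf8 fell with Aβ42 by 1.91-fold (-0.93 ± 0.06, adjusted p = 1.39e-07), was lower again with AE1-329 added to Aβ42 (-0.35 ± 0.06, adjusted p = 0.00282), and with the combination stood 2.43-fold below vehicle (-1.28 ± 0.06, adjusted p = 5.99e-09). With AE1-329 alone the difference from vehicle was -0.19 ± 0.06 and did not pass (adjusted p = 0.0814), while without vehicle replicate 1 it did (adjusted p = 0.0118).

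Irf4, best known from lymphocytes and from alternatively activated macrophages, gave values of 5.89, 5.90 and 5.61 with Aβ42 and AE1-329, 5.74, 5.92 and 5.90 with Aβ42 alone, 5.96, 5.90 and 5.87 with AE1-329 alone and 6.00, 6.19 and 6.26 with vehicle. The vehicle arrays were the highest, and the other 3 groups overlapped. All 12 lay below the array medians, and the files give no measure of how far they stood above background. Irf4 fell with Aβ42 (-0.30 ± 0.09, adjusted p = 0.0268) and with the combination (-0.35 ± 0.09, adjusted p = 0.0126) against vehicle. The first call was lost without Aβ42 replicate 1 (adjusted p = 0.122) or vehicle replicate 2 or 3 (0.0669 and 0.104), and when all probe sets were tested (0.0540). The second was lost without replicate 3 of the combination or of vehicle (adjusted p = 0.0590 and 0.0519) and in the fit to the 2 groups alone (0.0580).

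Irf5, whose product drives inflammatory cytokine genes in macrophages, gave 11.07, 11.11 and 11.17 with Aβ42 and AE1-329, 11.30, 11.28 and 11.35 with Aβ42 alone, 11.23, 11.22 and 11.31 with AE1-329 alone and 11.12, 11.27 and 11.37 with vehicle. Its group means spanned 0.20 log2 units, and the arrays of the combination were the lowest apart from vehicle replicate 1. The change with Aβ42 was 0.06 ± 0.06 (adjusted p = 0.578, 95% interval -0.08 to 0.20). AE1-329 added to Aβ42 gave -0.20 ± 0.06, which did not pass (adjusted p = 0.0809). It passed with the litter block (adjusted p = 0.0331) and in 6 other alternatives, among them the fit to these 2 groups alone (0.0276) and without vehicle replicate 1 (0.0178) or 3 (0.0434).

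**Figure D2:**
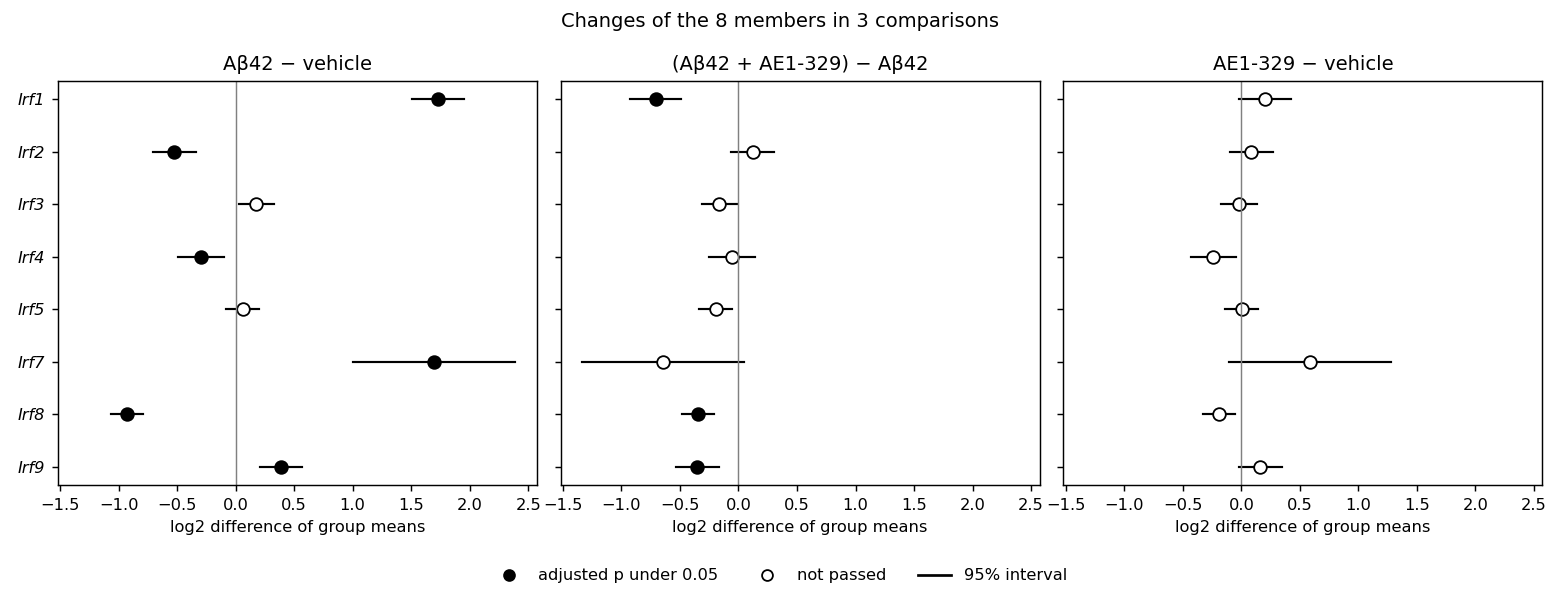
Log2 difference of each member in 3 comparisons, with 95% intervals from the fit to all 12 arrays; filled points passed an adjusted p of 0.05 over all genes. Aβ42 against vehicle moved Irf1, Irf7 and Irf9 up and Irf8, Irf2 and Irf4 down, AE1-329 added to Aβ42 moved Irf1, Irf8 and Irf9 down, and no point passed for AE1-329 against vehicle.

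Counted over the family, Aβ42 alone changed 6 of 8 members against vehicle, 3 higher and 3 lower, where 25.6% of all genes were called, 10.7% higher and 14.8% lower. The Aβ42 and vehicle arrays did not overlap for 7 members, against 35% of all genes. Adding AE1-329 to Aβ42 lowered 3 members and raised 0, with 11% of all genes called, 5.99% higher and 5.04% lower, and 6 members without overlap against 32% of genes. Of these 3, Irf1 and Irf9 had risen with Aβ42 against vehicle and Irf8 had fallen, as the plot of differences shows. With the litter block the members called were 5, all lower, Irf5 and Irf7 being added. The count was also 5 without vehicle replicate 1, and 6 in a fit to these 2 groups alone. The shares of all genes are those of the main fit, and none is given for these alternatives, here or below.

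With AE1-329 alone against vehicle 0 of 8 members were called by limma, where 10.2% of all genes were, and 2 members, Irf4 and Irf8, had an unadjusted p under 0.05. Higher calls made up 4.71% and lower calls 5.45% of all genes. The largest value was that of Irf7 given above, and Irf2, Irf3 and Irf5 differed from vehicle by 0.09, -0.02 and 0.00. With the litter block Irf1 and Irf7 were called higher, without vehicle replicate 1 Irf4 and Irf8 were called lower, and without vehicle replicate 3 Irf7 was called higher. The 2 groups did not overlap for 3 members, against 22.9% of all genes.

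Set against AE1-329 alone, the combination changed 3 members, 1 higher and 2 lower, with 22% of all genes called, 9.77% higher and 12.2% lower. Irf1 was 1.76-fold higher (0.82 ± 0.10, adjusted p = 4.68e-05) and Irf8 was 2.13-fold lower (-1.09 ± 0.06, adjusted p = 3.17e-08), with Irf2 as given above. The second Irf1 probe set did not show this increase (-0.03 ± 0.06, adjusted p = 0.840, over all probe sets). Irf7 stood 0.47 ± 0.32 above AE1-329 alone and did not pass (adjusted p = 0.38), and Irf9 gave -0.12 ± 0.08 (adjusted p = 0.371). Non-overlap held for 5 members, against 40.1% of genes.

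Against vehicle the combination changed 5 members, 2 higher and 3 lower, with 21.2% of all genes called, 9.27% higher and 11.9% lower, and 5 members without overlap, against 30.3% of genes. Irf7 was 2.08-fold above vehicle (1.05 ± 0.32, adjusted p = 0.0316), and Irf2 was lower (-0.40 ± 0.08, adjusted p = 0.00328). The Irf7 call did not hold without replicate 2 or 3 of the combination (adjusted p = 0.0652 and 0.124) or replicate 1 or 2 of vehicle (0.110 and 0.0559), and without vehicle replicate 1 the difference was 0.63. Nor did it hold when all probe sets were tested (0.0745), with a trended robust prior (0.0883) or in the fit to the 2 groups alone (0.0866). Comparisons that share a group share its arrays, so these counts are not independent of each other.

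The interaction asks whether the change with AE1-329 was different in the presence of Aβ42 and in its absence, and 2 of 8 members passed it, both with a negative difference, where 1.95% of all genes passed, 1.03% with a positive and 0.918% with a negative one. For Irf1 the change with AE1-329 was -0.71 in Aβ42 treated cells and 0.20 in cells without Aβ42, a difference of -0.91 ± 0.14 (adjusted p = 0.00434). For Irf9 it was -0.35 with Aβ42 and 0.16 without, a difference of -0.51 ± 0.12 (adjusted p = 0.0458). The Irf1 result held in all 19 alternative settings and the Irf9 result in 9 of 19, being lost without any array of the combination or of AE1-329 alone and without replicate 2 or 3 of Aβ42 alone (adjusted p = 0.0640 to 0.124), when all probe sets were tested (0.119), and without vehicle replicate 1 and AE1-329 replicate 3 (-0.40, 0.0806). For Irf7 the difference was larger but less certain at -1.22 ± 0.45 (adjusted p = 0.292), and with the litter block it passed (adjusted p = 0.0159). It was -1.61 and passed without vehicle replicate 3 (adjusted p = 0.0495), whereas without vehicle replicate 1 and AE1-329 replicate 3 it was -0.60 and did not. Irf8 gave -0.16 ± 0.09 (adjusted p = 0.64, 95% interval -0.35 to 0.04), so for this gene a difference between both settings was not detected.

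**Figure D3:**
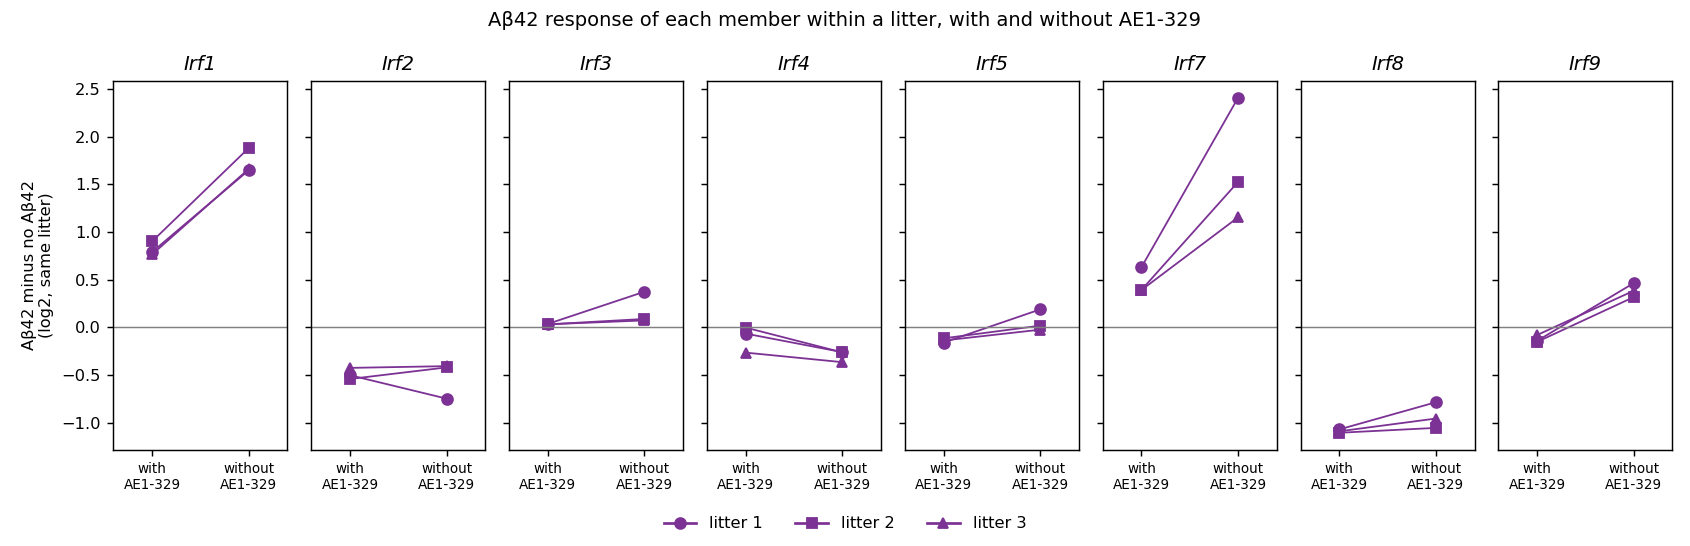
Log2 difference of Aβ42 treated minus untreated cells within each of the 3 litters, with AE1-329 present (left) and absent (right), for the 8 members. Lines join the same litter. Irf1, Irf3, Irf5, Irf7, Irf8 and Irf9 sat lower with AE1-329 present in all 3 litters, and Irf4 sat higher. The litters of Irf7 were furthest apart when AE1-329 was absent.

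Within litters, Aβ42 raised Irf1 by 0.79, 0.90 and 0.76 when AE1-329 was present and by 1.65, 1.88 and 1.66 when it was absent. For Irf7 the same differences were 0.63, 0.39 and 0.39 with AE1-329 and 2.41, 1.52 and 1.15 without it. For Irf9 they were -0.14, -0.15 and -0.08 with AE1-329 and 0.46, 0.32 and 0.38 without it. For Irf8 they were -1.07, -1.11 and -1.09 with AE1-329 and -0.79, -1.05 and -0.96 without it. In each of these genes every litter had the lower value in the presence of AE1-329. Irf3 and Irf5 did so too, Irf4 had the higher value in every litter, and Irf2 went both ways.

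Litters differed in the members' levels across groups. Irf1, Irf5, Irf7 and Irf9 were highest in replicate 3 in all 4 groups. Deviations from the group means were positively correlated in 25 of 28 pairs of members over the 12 arrays, most closely for Irf5 with Irf7 (r = 0.97), Irf7 with Irf9 (0.83) and Irf5 with Irf9 (0.83). Arrays of a litter share that litter, and these correlations are descriptions of 12 arrays. Of the 8 members, 6 had their largest SD in the vehicle group.

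Genes most like a member were sought by Pearson's r over the 12 arrays for the 4 members whose group means spanned at least 0.5. Nearest to Irf1 were the ubiquitin ligase gene Cop1 (r = 0.994), Rnf31 (0.986), which encodes the catalytic subunit of the linear ubiquitin chain complex, and Parp14 (0.986), and their deviations from group means also correlated with those of Irf1 at 0.887, 0.815 and 0.789. Nearest to Irf7 were the ISGF3 subunit gene Stat2 (0.966), Ankrd49 (0.962) and Tap1 (0.959), which encodes a subunit of the peptide transporter of antigen presentation, with deviations correlated at 0.914, 0.931 and 0.946. Irf2 was followed by Dusp19 (0.984), the leukotriene receptor gene Cysltr1 (0.982) and Slc10a7 (0.981), with 0.898, 0.853 and 0.906 for deviations. Irf8 was followed by Adamts10 (0.992), Man1c1 (0.989) and the transcription factor gene Mef2c (0.988), but their deviations correlated at only 0.476, 0.294 and 0.0979. All these genes were picked by r over the same 12 arrays, and the deviations are part of that r. The correlations of deviations therefore describe the picked genes and do not test likeness among arrays of a group.

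The lists that follow are to be read against the shares of all genes called, 25.6% for Aβ42 against vehicle, 11% for AE1-329 added to Aβ42, 10.2% for AE1-329 against vehicle and 1.95% for the interaction. These shares are of the main fit, so list counts under the litter block or another alternative cannot be read against them. Upstream of the factors, 16 of 18 listed sensors, adaptors and kinases were measured, and 7 rose and 4 fell with Aβ42 (median change 0.11, all genes 0.02). Ikbke, which encodes the inducible IRF3 and IRF7 kinase IKKε, rose by 2.90 ± 0.10 (adjusted p = 1.56e-10), the adaptor gene Myd88 by 0.87 ± 0.05 and the RNA sensor gene Ifih1 by 1.52 ± 0.11. Tlr7, the receptor of single-stranded RNA, changed by -0.73 ± 0.06. Of the 16, 1 rose and 6 fell when AE1-329 was added to Aβ42. Tlr4, the endotoxin receptor gene, rose by 0.77 ± 0.09 (adjusted p = 8.79e-05), while Tlr7 changed by -0.68 ± 0.06, the TLR3 and TLR4 adaptor gene Ticam1 by -0.53 ± 0.06 and Ifih1 by -0.87 ± 0.11. AE1-329 alone raised 2 of these genes and lowered 3, among them Tlr7 at -0.36 ± 0.06 (adjusted p = 0.00148), but the count of 5 was 1 without AE1-329 replicate 2 or in a fit to these 2 groups alone, and 2 without AE1-329 replicate 3. In the interaction Ddx58, which encodes the RNA sensor RIG-I, and Ifih1 passed, at -1.04 ± 0.18 and -0.99 ± 0.16, and 6 of the 16 passed with the litter block and 5 without vehicle replicate 1.

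Of 12 interferon, receptor, JAK and STAT genes, 11 were measured, and 5 rose and 0 fell with Aβ42 (median 0.15). Jak2 rose by 1.29 ± 0.10, Stat2 by 1.00 ± 0.13 (adjusted p = 6.47e-05) and Tyk2 by 0.69 ± 0.09, while Ifnb1, the interferon β gene that IRF3 and IRF7 switch on, gave 0.11 ± 0.09 (adjusted p = 0.472). Adding AE1-329 to Aβ42 lowered Stat2 (-0.45 ± 0.13, adjusted p = 0.0444) and raised Jak2 by 0.35 ± 0.10 and Ifnar1, a subunit gene of the type I interferon receptor, by 0.23 ± 0.05. That count of 3 was 1 when any of replicates 1 and 2 of the combination, replicates 1 to 3 of Aβ42 alone or replicates 1 and 2 of AE1-329 alone was left out. AE1-329 alone raised 2 genes, Ifnar1 (0.23 ± 0.05) and Ifngr2 (0.17 ± 0.05), of the 11, against 10.2% of all genes. That count of 2 was 0 in a fit to these 2 groups alone, and 1 when all probe sets were tested, after quantile normalization again, or without any array of AE1-329 alone, replicate 2 or 3 of Aβ42 alone, replicate 3 of the combination or replicate 3 of vehicle. None of the 11 passed the interaction in limma, where 1 had an unadjusted p under 0.05 and Stat2 gave -0.79 ± 0.18 (adjusted p = 0.0501). In 8 of 19 alternatives 1 passed. These were the litter block, the filter at the median level, means of probe sets, repeated quantile normalization, the trended robust prior and any single vehicle array left out.

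Among the factors that bind DNA with the family, 8 of 10 were measured and 7 rose with Aβ42 (median 0.55). Rel, an NF-κB subunit gene, rose by 1.62 ± 0.06 (adjusted p = 7.21e-10), the AP-1 factor gene Batf by 1.03 ± 0.06, and Spi1, which encodes the IRF8 partner PU.1, by 0.54 ± 0.05. Spi1 thus rose in the same arrays in which Irf8 fell. With AE1-329 added, Rel, Batf, Batf2 and Stat2 fell and Ets1 rose, with -0.43 ± 0.06 for Rel and 0.59 ± 0.06 for Ets1 (adjusted p = 3.54e-05). Rel was the 1 called gene of 8 with AE1-329 alone, or 1 of 2 with the litter block, where 10.2% of all genes were called (0.43 ± 0.06, adjusted p = 0.000699), there higher, and its interaction was -0.86 ± 0.09 (adjusted p = 0.000264). In the interaction 2 of 8 genes passed, 5 with the litter block and 1 without replicate 1 or 2 of the combination, Aβ42 replicate 3 or AE1-329 replicate 2.

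All 8 IRF-binding proteins and brakes of interferon signalling were measured, and 4 rose and 2 fell with Aβ42 (median 0.34). Socs3, a feedback inhibitor of cytokine receptors, rose by 3.48 ± 0.14 and Trim21, a ubiquitin ligase of IRF proteins, by 1.31 ± 0.10, while Irf2bp2, which encodes a corepressor of IRF2, gave -0.73 ± 0.08 (adjusted p = 8.01e-06). When AE1-329 was added to Aβ42, Irf2bp2 rose by 0.77 ± 0.08 (adjusted p = 2.4e-05) and Trim21, Usp18 and Socs1 fell, with changes of -0.76 ± 0.10, -1.46 ± 0.35 and -0.42 ± 0.11. This count of 4 was 2 without replicate 1 of the combination or replicate 3 of Aβ42 alone. For AE1-329 alone 0 of the 8 were called by limma, with 2 at an unadjusted p under 0.05 and 1 called with the litter block.

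**Figure D4:**
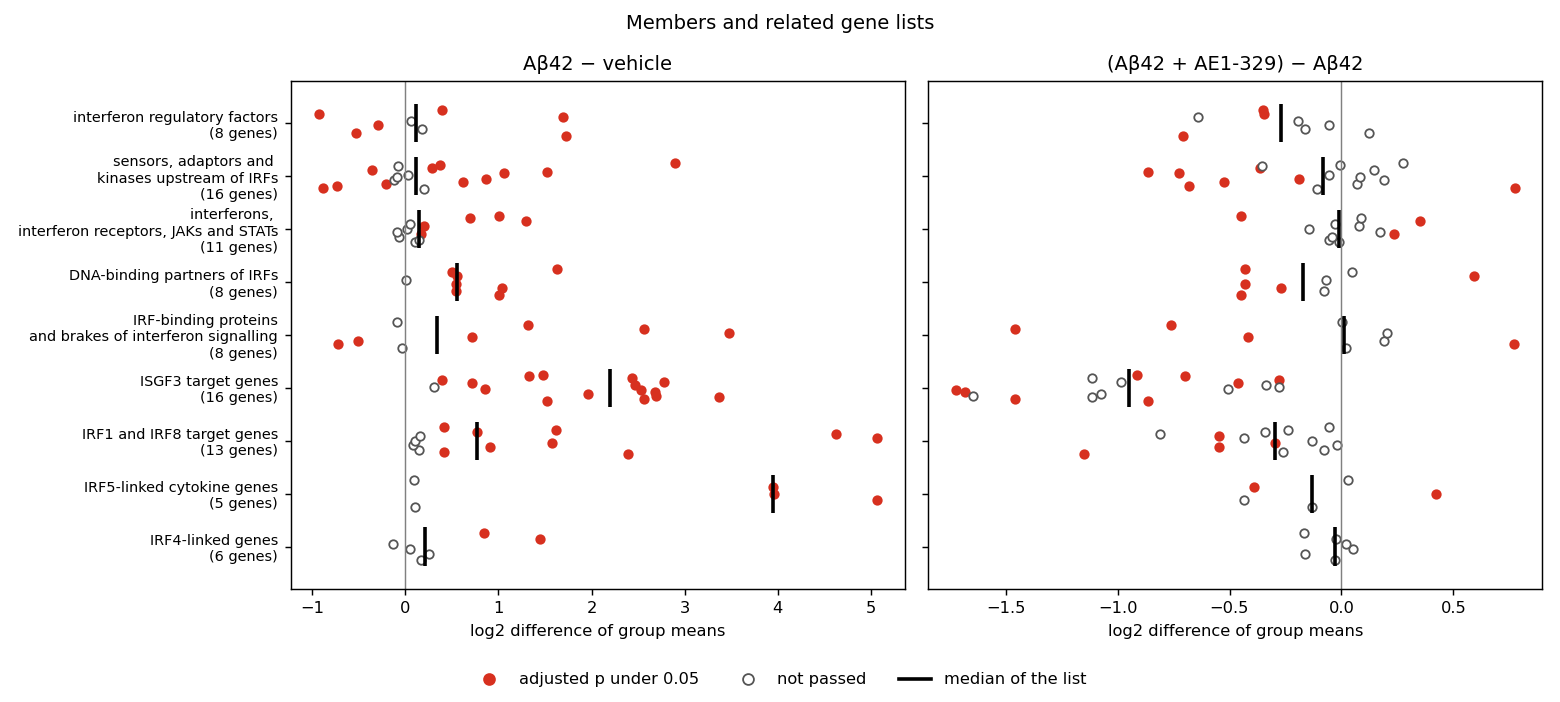
Log2 change of each measured gene in 9 lists, the family and the 8 lists around it, for Aβ42 against vehicle and for AE1-329 added to Aβ42; a black bar is the median of a list. The ISGF3 targets have a median of 2.20 with Aβ42 and -0.95 with AE1-329 added, while the family itself lies on both sides of 0 with Aβ42.

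Of 18 ISGF3 target genes, Ifih1 and Usp18 of the lists above among them, 16 were measured, and 15 rose and 0 fell with Aβ42 (median 2.20). The antiviral GTPase gene Mx2 rose by 2.53 ± 0.21 (adjusted p = 1.19e-06), Oasl1, which restrains Irf7 translation in mouse cells, by 2.47 ± 0.26, and Rtp4 by 1.33 ± 0.13. With AE1-329 added to Aβ42, 8 fell and 0 rose (median -0.95, all genes -0.02), among them Mx2 (-1.72 ± 0.21, adjusted p = 0.00016), Xaf1 (-0.91 ± 0.16) and Rtp4 (-0.70 ± 0.13). The count of 8 was 14 with the litter block, in a fit to these 2 groups alone, and without vehicle replicate 1 and AE1-329 replicate 3, and it was 5, 4, 5 and 4 without replicate 1 or 2 of the combination or replicate 2 or 3 of Aβ42 alone. In the combination 8 of the 16 were higher than with vehicle, where 21.2% of all genes were called and 9.27% were higher. This count was 14 with the litter block, 5 when all probe sets were tested, and 4 without vehicle replicate 1 or without replicate 3 of the combination. Against AE1-329 alone the combination raised 7 of 16, where 22% of all genes were called and 9.77% were higher. That count was 13 with the litter block and 3 without replicate 3 of the combination or AE1-329 replicate 1. It was 4 without AE1-329 replicate 2 and 12 without AE1-329 replicate 3. For AE1-329 alone 0 of 16 were called by limma, with 0 at an unadjusted p under 0.05. With the litter block 1 was called higher, and without both vehicle replicate 1 and AE1-329 replicate 3 1 was called lower. Some of these genes spread widely among the arrays of AE1-329 alone. Examples are Ifit2 with 6.57, 7.63 and 9.26 (replicates 1 to 3) and Rsad2 with 8.37, 8.87 and 11.04. In the interaction 3 passed, all lower, among them Mx2 (-1.56 ± 0.30) and Rtp4 (-0.89 ± 0.18), and 12 passed with the litter block, while 1 passed without replicate 1 or 2 of the combination or replicate 2 or 3 of Aβ42 alone.

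Target genes of IRF1 and IRF8 numbered 13 measured of 14, of which 9 rose and 0 fell with Aβ42 (median 0.77). Il12b, a cytokine gene that IRF1 and IRF8 activate in macrophages, rose by 5.06 ± 0.14, the guanylate-binding protein gene Gbp3 by 2.40 ± 0.21, the checkpoint ligand gene Cd274 by 1.62 ± 0.09 and the nitric oxide synthase gene Nos2 by 1.58 ± 0.08. With AE1-329 added to Aβ42, 4 fell and 0 rose (median -0.30), namely Gbp3 (-1.15 ± 0.21), Il15 (-0.55 ± 0.12), Tap1 (-0.55 ± 0.15) and Nos2 (-0.30 ± 0.08), while Il12b gave -0.44 ± 0.14 (adjusted p = 0.0765). The count of 4 was 2 without replicate 1 or 3 of the combination or replicate 2 or 3 of Aβ42 alone, 7 without vehicle replicate 1 and AE1-329 replicate 3, 8 in a fit to these 2 groups alone and 2 when all probe sets were tested. Il15, which encodes a cytokine of NK cells and memory T cells, rose with AE1-329 alone by 0.73 ± 0.12 (adjusted p = 0.00156) and passed the interaction (-1.28 ± 0.17, adjusted p = 0.00173). It was the 1 called gene of 13 in both, but with AE1-329 alone the count was 2 without AE1-329 replicate 3, and in the interaction it was 3 with the litter block and 2 without Aβ42 replicate 1, AE1-329 replicate 2 or vehicle replicate 3.

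Of 5 IRF5-linked cytokine genes, with Il12a and Il12b again among them, Tnf, Il6 and Il12b rose with Aβ42, Tnf by 3.95 ± 0.09 and Il6 by 3.96 ± 0.12, in the same arrays in which Irf5 gave the change of 0.06 reported above. With AE1-329 added to Aβ42, Tnf fell (-0.39 ± 0.09, adjusted p = 0.01) and Il6 rose (0.42 ± 0.12, adjusted p = 0.0375), a count of 2 that was 1 or 0 when any array of either group was left out. AE1-329 alone lowered Tnf (-0.73 ± 0.09, adjusted p = 0.000129). Of 6 IRF4-linked genes, Kdm6b, a histone demethylase gene, and Prdm1, which encodes the repressor BLIMP1, rose with Aβ42, by 1.44 ± 0.06 and 0.84 ± 0.07, while the alternative activation markers Arg1 and Chil3 gave 0.17 ± 0.07 (adjusted p = 0.111) and 0.25 ± 0.10 (adjusted p = 0.0727). When AE1-329 was added, 0 of the 6 passed in limma and 1 had an unadjusted p under 0.05.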

How the data were processed

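RNA of 12 cultures was labelled with biotin and measured on 12 Affymetrix GeneChips (Mouse Gene 1.0 ST), as the labels give. The deposited values are log2 intensities per probe set, which the authors made with RMA in Partek 6.5, per the submitters' processing notes. Its settings were not given in the sources used. RMA equalises the distributions of the arrays, so a change shared by all genes cannot be seen. Precision is bounded by 3 arrays a group.

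Of 35556 probe sets, 21789 had 1 gene symbol, 1621 several and 12146 none, and 21698 of the first matched RefSeq (GRCm38.p6) by gene ID. The highest-mean probe set was kept for each of 19938 genes. A model of the 4 group means across the 12 arrays was fitted in limma 3.58.1 (R 4.3.3, lmFit and eBayes), two-sided, with Benjamini-Hochberg adjustment over all genes, a threshold of 0.05, 8 residual and 4.54 prior degrees of freedom. There were 6 comparisons. On simulated Aβ42 against vehicle data over 19938 genes, 96% of changes of -1, 78% of -0.5, 86% of 0.5 and 98% of 1 were recovered with 8 false calls. The simulated noise was independent between arrays, with a common SD per gene, and fewer genes changed than were called in the data. It held neither litter effects nor the wider vehicle spread, so these rates check the code and are not error rates of the results.

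The study describes 3 litters as its replicates. Deviations of same-numbered arrays from group means correlated in 17 of 18 pairs above 0.1 (mean 0.33, lowest 0.0044), and each of 12 arrays correlated best with arrays of its own number. The numbers were therefore read as litters, and values with the litter as a block (6 residual degrees of freedom) stand beside results whose call they change.

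Members and gene lists were chosen with earlier results of these data known, so a list's counts are descriptions. Named genes are the members, up to 4 genes with the smallest p per list and comparison, and the 3 genes most like each member. Ifnb1 was named after its values were seen. Irak4, Traf3, Nfkb1, Isg15, Ifi44 and Gbp2 had no probe set with a single symbol. Alternatives were single arrays left out, the litter block, only the 2 groups compared, a filter at the median level, all probe sets, means of probe sets, a trended robust prior, repeated quantile normalization and, chosen after seeing the data, the 2 arrays with most outlying genes left out.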

Additional observations from a re-analysis of the deposited data

Results flagged for a closer look

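In 2 members the change with AE1-329 differed between cells with and without Aβ42 by a test of the difference itself. For Irf1 the change was -0.71 with Aβ42 and 0.20 without it, a difference of -0.91 ± 0.14 log2 units (SE, limma adjusted p = 0.00434), and the second Irf1 probe set gave -0.28 ± 0.08 (adjusted p = 0.230, over all probe sets). For Irf9 the change was -0.35 with Aβ42 and 0.16 without it, a difference of -0.51 ± 0.12 (adjusted p = 0.0458). The Irf9 result was lost in 10 of 19 alternatives, with adjusted p of 0.0640 to 0.124 there, and the Irf1 result in 0 of 19. Both were lower with AE1-329 in the presence of Aβ42 in 3 of 3 litters.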

How the results depend on the processing

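Over 946 values of a member in a comparison under an alternative, 873 kept their direction and side of the threshold, 29 lost a call, 25 gained one and 19 changed sign, and none of these last was a called result. Irf1, Irf2 and Irf8 results that passed, other than those with AE1-329 alone, passed in all 20 alternatives (19 for the interaction). For AE1-329 against vehicle the count of members called was 0, against 2 with the replicate block, 1 among genes above the median level and 1 without vehicle replicate 1 and AE1-329 replicate 3, a pair chosen after seeing the data. For AE1-329 added to Aβ42 the count of 3 was 5 with the block, 6 in the fit to the 2 groups compared and 5 without those 2 arrays. For the combination against vehicle the count of 5 was 3 in the fit to the 2 groups. For the interaction the count of 2 was 1 with all probe sets tested and 1 without the 2 arrays. With single arrays left out the counts ran from 5 to 6 for Aβ42 against vehicle, 0 to 2 for AE1-329 against vehicle, 2 to 5 for AE1-329 added to Aβ42, 3 to 3 for the combination against AE1-329, 3 to 5 for the combination against vehicle and 1 to 3 for the interaction. The block changed no other call of a member than those given with the results, and of list counts not yet given it moved those with AE1-329 alone to 6 sensors, 3 interferon, receptor, JAK and STAT genes and 2 DNA-binding partners, and that of IRF1 and IRF8 targets with AE1-329 added to Aβ42 to 6.

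Apart from Irf7 with AE1-329 against vehicle (0.58), the sign changes were of values near 0. Without vehicle replicate 1 and AE1-329 replicate 3, the signs turned for Irf5 (-0.09275) and Irf7 (-0.04397) with AE1-329 against vehicle, for Irf3 (-0.08237) and Irf9 (-0.06214) with the combination against vehicle, and for Irf5 with Aβ42 against vehicle (-0.007967). Quantile normalization again gave -0.004485 for Irf5 with AE1-329 against vehicle. With single arrays left out, Irf3 ran from -0.1152 to 0.04158 and Irf5 from -0.06553 to 0.06337 for AE1-329 against vehicle, Irf5 from -0.007967 to 0.1209 for Aβ42 against vehicle, and Irf4 from -0.1111 to 0.04319 for AE1-329 added to Aβ42. For the combination against vehicle Irf3 ran from -0.08237 to 0.07436 and Irf9 from -0.06214 to 0.09298, and the Irf2 interaction ran from -0.03504 to 0.09412. The cause was not tested. Irf4 lies below the array medians and its signal over background is unknown.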
